A study of Mus musculus with 12 samples.

Results

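The genes described here are 10 DNA damage checkpoint kinases and mediators in the mouse kidney: Atm, Atr, Chek1, Chek2, Wee1, Trp53, Trp53bp1, Mdc1, H2afx and Rad17. They were chosen by name for what they do, with earlier results of these data known, and were found in the table by NCBI Gene number, 10 of 27179 listed genes. RNA from whole kidneys of 12 mice was sequenced, 3 for each of 4 conditions: wild-type and γGT1-Cre;Fan1-/- (FAN1KO) mice, either of which had received saline or cisplatin. Cisplatin, a platinum drug that crosslinks DNA, was injected into the peritoneum at 2 mg/kg each week for 5 weeks, and control mice received saline. The mice were 8 to 12 weeks old and of a mixed strain background according to the labels, whereas the methods describe backcrossing to 129Sv-Elite. Cre driven by the Ggt1 promoter deletes Fan1, the gene of a nuclease that acts in the repair of interstrand crosslinks, in the proximal tubule, and other kidney cells keep the gene. The comparisons ask whether the checkpoint genes differ in RNA between FAN1KO and wild-type kidneys, with and without cisplatin, and whether cisplatin changes them in either genotype.

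As background, ATR and ATM are the apical kinases of the checkpoint. ATR is recruited to single-stranded DNA at stalled forks, where the clamp loader RAD17 helps its activation. ATR activates CHK1, whereas ATM answers double-strand breaks and activates CHK2. Both phosphorylate the histone variant H2AX, on which MDC1 and 53BP1 assemble, and both act on p53, which turns on arrest and death genes. WEE1 holds CDK1 in its inactive state before mitosis. Most of this control is exerted on the proteins, by phosphorylation and turnover, and RNA levels do not report it.

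Values are TPM, read counts scaled for gene length and then so that each library sums to 1000000. Reads recovered from the TPM steps ran from 37196407 to 82935965 per library, with a median of 42164881. Fan1 itself did not check the labels in whole kidney. It stood at 3.80, 3.35 and 1.98 TPM in wild-type saline, 1.17, 1.54 and 2.28 in FAN1KO saline, 2.33, 3.57 and 3.32 in wild-type cisplatin and 2.72, 3.51 and 1.55 in FAN1KO cisplatin, so that the genotypes overlapped under both treatments. Y-linked RNA was present in 4 libraries, 1 per condition (replicate 3 of wild-type saline and of FAN1KO cisplatin, replicate 1 of FAN1KO saline and of wild-type cisplatin). The median ratio of a library's genes to their average over all libraries was 1.09 to 1.35 in FAN1KO cisplatin and 0.767 to 1.08 elsewhere, and mitochondrially encoded transcripts made up 10.2% to 16.7% of TPM in FAN1KO cisplatin and 18.3% to 22.7% elsewhere. The median gene was 0.24 higher on the log2 scale in FAN1KO than in wild-type kidneys under cisplatin and 0.37 higher in FAN1KO kidneys under cisplatin than under saline, and the fold changes of the checkpoint genes are read against those shifts.

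Promoters were matched for 8 of the 10 genes in the RefSeq promoter table for GRCm38.p6, from 250 bases before to 50 bases after the start. Wee1 and H2afx are not in the table. The windows were searched on both strands for E2F words (TTTGGCGC, TTTCGCGC, TTTGCCGC or TTTCCCGC), bound by the factors that turn on S phase genes, for the CCAAT box, and for the CHR word TTTGAA found in genes of the late cell cycle. An E2F word was present in Chek2 (starting 152 bases before the start) and in Mdc1 (16 bases before), 2 of the 8, against 2.26% of all 32851 promoters. A CCAAT box was present in Atm, Chek2, Trp53 and Mdc1, against 37.4% of all promoters, and a CHR word in none of the 8, against 17.9%. The start used for Chek2 lies inside its gene span, which begins at chr5:110839800. Its E2F word and the nearer of its CCAAT boxes therefore fall within the annotated gene. For Trp53bp1 all 250 bases before the start lie within the gene span, which ends at chr2:121296354. The starts of Atm, Trp53 and Mdc1 also lie inside their gene spans. The 250 bases before the start are shown for Chek2 and Trp53, which of the 9 genes that passed the filter in every library have the largest log2 differences of TPM + 1 below, and for Mdc1, the other gene with an E2F word. Capitals mark the E2F word and the CCAAT box on either strand, and the sequences read 5′ to 3′ on the gene's strand, the plus strand in all 3 (chr5:110839733-110839982, chr11:69580109-69580358 and chr17:35841248-35841497).
Chek2: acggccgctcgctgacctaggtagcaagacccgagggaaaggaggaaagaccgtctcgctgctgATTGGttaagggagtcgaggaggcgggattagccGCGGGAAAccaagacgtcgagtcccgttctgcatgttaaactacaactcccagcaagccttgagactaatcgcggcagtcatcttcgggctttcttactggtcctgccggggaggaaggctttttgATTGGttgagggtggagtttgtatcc
Trp53: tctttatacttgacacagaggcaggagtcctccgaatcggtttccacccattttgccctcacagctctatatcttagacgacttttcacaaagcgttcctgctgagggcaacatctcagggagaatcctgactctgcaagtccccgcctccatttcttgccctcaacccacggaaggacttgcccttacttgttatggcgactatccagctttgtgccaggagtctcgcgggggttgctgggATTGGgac
Mdc1: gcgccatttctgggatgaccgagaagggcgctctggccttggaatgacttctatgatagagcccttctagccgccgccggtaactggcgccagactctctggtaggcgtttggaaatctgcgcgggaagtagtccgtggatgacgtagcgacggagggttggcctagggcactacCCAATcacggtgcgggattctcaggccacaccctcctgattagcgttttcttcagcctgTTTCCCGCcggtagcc

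Trp53 and H2afx were the abundant members, with means over the 12 libraries of 34.0 and 27.4 TPM. Rad17, Wee1 and Trp53bp1 lay between 8.57 and 10.2 TPM, and Mdc1, Chek2, Atr and Atm between 2.73 and 4.81. Chek1 was the scarcest at 0.668 TPM, below all but 0.855% of the genes tested. The annotation places 4 of the 10 on chromosome 9, which holds 5.33% of the genes tested: Chek1 (chr9:36708482-36726658), H2afx (chr9:44334715-44336077), Atm (chr9:53437122-53536828) and Atr (chr9:95857597-95953217). Trp53 is at chr11:69580348-69591873, Chek2 at chr5:110839800-110874140, Mdc1 at chr17:35841495-35859670, Trp53bp1 at chr2:121194835-121296354, Wee1 at chr7:110122059-110143299 and Rad17 at chr13:100617164-100651061, all in GRCm38. Atr and Trp53bp1 overlap other annotated genes, and whether the counting used strand is not given in the sources used here, so reads may be shared between them.

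Of the 10 genes, 9 reached 1 TPM in all 12 libraries. Chek1 reached it in the 3 FAN1KO cisplatin libraries only, so it passed the filter through the group in which it was high and is counted apart. limma on log2(TPM + 1) called 3 of the 9 higher in FAN1KO than in wild-type kidneys under cisplatin (Chek2, Trp53 and H2afx) and none lower, at an adjusted p of 0.05. Over all 14972 genes tested, 19.6% were called higher and 4.37% lower. All 3 FAN1KO values lay above all 3 wild-type values for 6 of the 9 genes, against 35.7% of all genes, and the median log2 fold change of the 9 was 0.43 against 0.24 over all genes. Within FAN1KO kidneys cisplatin raised 4 of the 9 (Trp53, H2afx, Atr and Mdc1) and lowered none, against 34.9% and 4.9% of all genes, so that the share of checkpoint genes called was close to the background. The 3 cisplatin values exceeded the 3 saline values for 6 of the 9, against 47.4% of all genes. In wild-type kidneys limma called none of the 9 after cisplatin (1 at an unadjusted p under 0.05, and none by voom on recovered reads), where 0.0601% of all genes were called higher. Between the genotypes under saline it called none (2 at an unadjusted p under 0.05, and none by voom), where 0.341% of all genes were called higher and 0.427% lower. Scaling each library by its median ratio moved the share of calls that were higher from 81.8% to 54.6% over all genes between genotypes under cisplatin, with 2 of the 9 checkpoint genes higher, and from 87.7% to 53.3% within FAN1KO kidneys, with 2 higher and 1 lower. The interaction, the cisplatin effect in FAN1KO minus that in wild-type kidneys, was called for 1 of the 9 (Trp53), against 5.22% of all genes in this direction and 1.02% in the other. Its median was 0.36 over the 9 and 0.28 over all genes, of which 74.7% lay above 0.

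**Figure D1:**
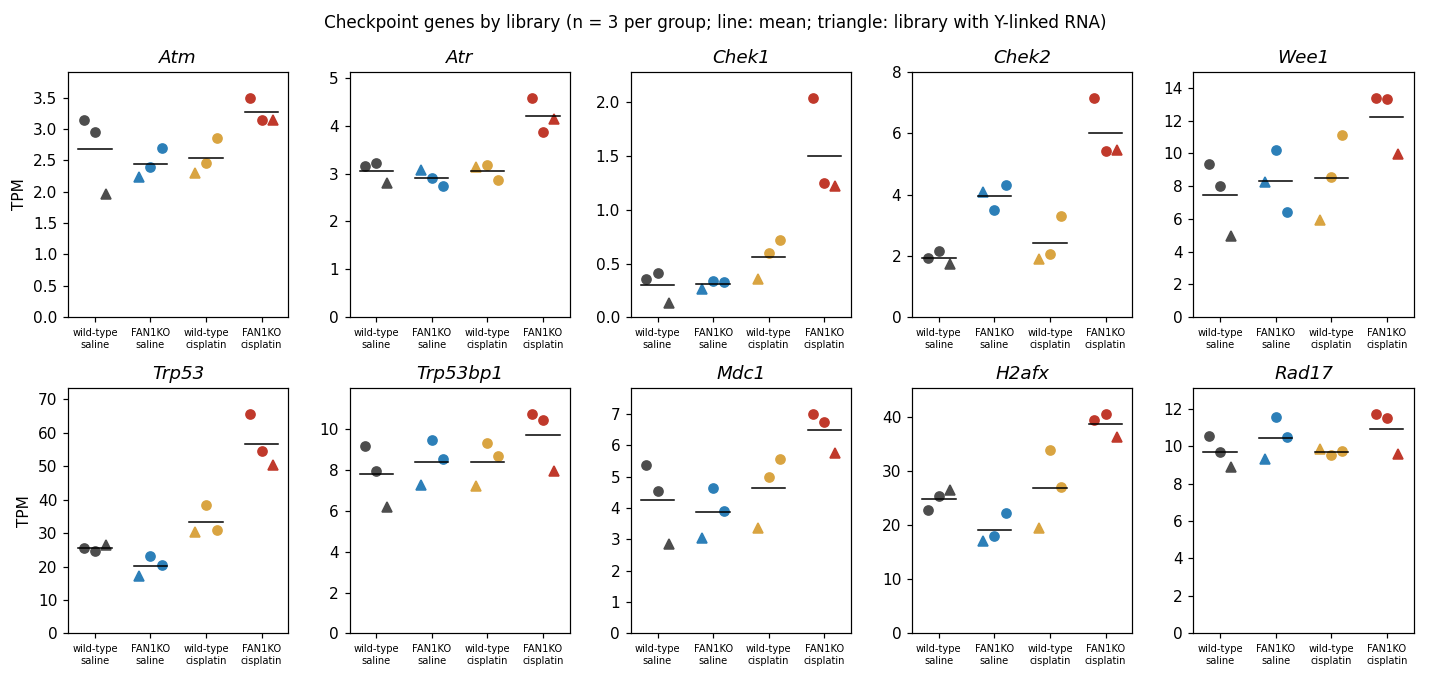
TPM of the 10 checkpoint genes (vertical axes from 0) in the 12 libraries, 3 per group, with the group mean as a line and the 4 libraries with Y-linked RNA as triangles. Trp53 stands at 50.3 to 65.5 TPM in FAN1KO cisplatin and at or below 38.3 in every other library, while Chek2 is above wild-type saline in all 6 FAN1KO libraries.

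Trp53, the gene of the transcription factor p53, showed the largest response to cisplatin among the 9. In wild-type saline kidneys it stood at 25.6, 24.8 and 26.6 TPM, and in wild-type cisplatin kidneys at 30.3, 38.3 and 31.0. In FAN1KO kidneys it stood at 17.0, 23.2 and 20.4 TPM under saline and at 65.5, 54.5 and 50.3 under cisplatin. Ordered by level, the 4 groups ran from FAN1KO saline through both wild-type groups to FAN1KO cisplatin, and no group overlapped the next. Within FAN1KO kidneys the rise was 2.81-fold (log2 difference of TPM + 1 of 1.45, SE 0.14, limma adjusted p = 0.000127), the 92nd smallest p of the 14972, and between genotypes under cisplatin it was 1.71-fold (0.76, SE 0.14, adjusted p = 0.00505). The wild-type response was 1.30-fold (0.35, SE 0.14, unadjusted p = 0.0302) and passed no threshold in the limma fit (adjusted p = 1). Under saline FAN1KO values were 0.789 of wild-type (log2 difference -0.34, adjusted p = 0.538 in limma), with no overlap, which also passed no threshold. With 3 mice against 3 the exact two-sided permutation test cannot go below 0.1, and it gave 0.1 for each of these 4 differences. The interaction was 1.09 (SE 0.20, limma adjusted p = 0.0162), and Trp53 lay above 92.8% of all genes in it.

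Chek2, the kinase downstream of ATM, differed from Trp53 in that it was also higher in FAN1KO kidneys under saline. It stood at 1.93, 2.15 and 1.72 TPM in wild-type saline, 4.08, 3.48 and 4.32 in FAN1KO saline, 1.91, 2.06 and 3.30 in wild-type cisplatin and 7.15, 5.41 and 5.44 in FAN1KO cisplatin. All 6 FAN1KO values lay above all 6 wild-type values. Between genotypes the ratio was 2.48 under cisplatin (log2 difference 1.05, SE 0.18, limma adjusted p = 0.00377) and 2.05 under saline (0.76, SE 0.18, unadjusted p = 0.00177, adjusted p = 0.125), the second not passing over all genes. The saline difference was above that of 98.5% of all genes, and it passed when library scaling was changed to median ratios (0.82, limma adjusted p = 0.0433) or when Y-linked RNA was a covariate (0.76, adjusted p = 0.0326). These were the only 2 of 23 alternatives in which it passed. Leaving out 1 library at a time gave limma adjusted p of 0.0908 to 0.368. With the covariate 173 of all genes were called higher and 248 lower, beside 51 and 64 as reported. The interaction was 0.29 (95% interval -0.28 to 0.86, limma adjusted p = 0.522), close to the all-gene median of 0.28, so a difference in cisplatin response between genotypes was not shown. Within FAN1KO kidneys cisplatin gave 1.51-fold (0.49, SE 0.18, adjusted p = 0.0539 in limma), no overlap and no call, although it passed without wild-type cisplatin 1 (adjusted p = 0.0477) or 3 (0.0355), with a stricter filter (0.0423), with no variance trend (0.0396) or with the Y-linked covariate (0.0197). Median-ratio scaling left 0.12 (limma adjusted p = 0.596). In wild-type kidneys the groups overlapped (0.20, limma adjusted p = 1).

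Because both saline and cisplatin FAN1KO libraries were high in Chek2, the 3 tested genes on either side of it on chromosome 5 were listed, a choice made after its values were seen. None of the 6 (Pus1, Ulk1, Hscb, Ttc28, Pitpnb and Tpst2) was called between genotypes under saline by limma, and their ratios of FAN1KO to wild-type ran from 0.771 for Tpst2 to 1.14 for Hscb. Under cisplatin 3 of the 6 were called higher, Ulk1 (0.43, limma adjusted p = 0.0417), Hscb (0.48, 0.0364) and Pitpnb (0.40, 0.0216), against 19.6% of all genes. The genes whose pattern over the 12 libraries was most like that of Chek2 were Scpep1os (Pearson r = 0.98), Gas5 (0.97) and Mcm6 (0.96), with 77 genes at 0.9 or above. The libraries share group and depth, so these values describe likeness only. Mcm6, a subunit of the replicative helicase, stood at 0.754, 1.56 and 0.784 TPM in wild-type saline, 6.40, 6.77 and 8.05 in FAN1KO saline, 0.612, 1.83 and 2.05 in wild-type cisplatin and 17.3, 13.8 and 18.7 in FAN1KO cisplatin. It was the single gene of the 14 tested from the cell cycle list that limma called between genotypes under saline (2.01, SE 0.25, adjusted p = 0.00501).

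Chek1, the kinase downstream of ATR, was low everywhere and highest in FAN1KO kidneys given cisplatin. Its TPM were 0.359, 0.411 and 0.135 in wild-type saline, 0.262, 0.333 and 0.330 in FAN1KO saline, 0.357, 0.600 and 0.718 in wild-type cisplatin and 2.04, 1.25 and 1.22 in FAN1KO cisplatin. The lowest FAN1KO cisplatin library held 92 reads (1.22 TPM, 95% exact Poisson interval 0.985 to 1.50) and the highest wild-type cisplatin library 51 (0.718 TPM, 0.535 to 0.945), intervals that cover counting error only and did not meet. In a fit without the filter on low values, where Chek1 did not need to be high in any group to be tested, limma gave a difference between genotypes under cisplatin of 0.67 (SE 0.14, adjusted p = 0.011, ratio of means 2.69) and within FAN1KO kidneys of 0.92 (SE 0.14, adjusted p = 0.00147, ratio 4.88). Between genotypes under saline Chek1 gave 0.01 and after cisplatin in wild-type kidneys 0.26, both with an adjusted p of 1 in that limma fit. Its interaction was 0.66 (SE 0.20, limma adjusted p = 0.0915). Also without that filter, and chosen after seeing the data, leaving out each library in turn gave 0.53 to 0.75 between genotypes under cisplatin (highest limma adjusted p 0.0428, without wild-type cisplatin 1) and 0.77 to 1.00 within FAN1KO kidneys (highest 0.00754, without FAN1KO saline 1). A pseudocount of 0.1 gave 1.29 between genotypes, with an adjusted p of 0.0518 by limma. The pseudocount of 1 exceeds most Chek1 values, so the log2 differences understate the ratios.

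Atr showed a small rise that separated the FAN1KO cisplatin group from the others. Values were 3.15, 3.23 and 2.81 TPM in wild-type saline, 3.07, 2.91 and 2.73 in FAN1KO saline, 3.13, 3.18 and 2.86 in wild-type cisplatin and 4.58, 3.86 and 4.14 in FAN1KO cisplatin. The 9 other libraries spanned 2.73 to 3.23 TPM, below every FAN1KO cisplatin value. Within FAN1KO kidneys the rise was 1.44-fold (0.41, SE 0.13, limma adjusted p = 0.0266), close to the all-gene median of 0.37, and scaling by median ratios left 0.07 (adjusted p = 0.751). The rise also missed the threshold with mitochondrial genes left out (0.32, limma adjusted p = 0.101), with the 6 libraries of the comparison (0.0839) and with no filter (0.0542). The genotype difference under cisplatin was 1.37-fold (0.35, SE 0.13) and missed the threshold in limma (adjusted p = 0.067), which it passed by voom on recovered reads (0.41, 0.0285), with no variance trend (0.0313), with a filter of 1 TPM in all 12 libraries (0.0438) and with the Y-linked covariate (0.0169). Without FAN1KO cisplatin 1 the rise within FAN1KO kidneys was 0.36 with an adjusted p of 0.095, without FAN1KO saline 2 it was 0.41 (0.0581), and without FAN1KO saline 3 it was 0.38 (0.0804), each by limma. Atm stood at 3.14, 2.95 and 1.96 TPM in wild-type saline, 2.23, 2.40 and 2.69 in FAN1KO saline, 2.29, 2.46 and 2.86 in wild-type cisplatin and 3.49, 3.15 and 3.15 in FAN1KO cisplatin. Its FAN1KO cisplatin values were the highest of the 12, yet no comparison was called: the genotype difference under cisplatin was 0.27 (95% interval -0.08 to 0.63, limma adjusted p = 0.241), beside an all-gene median of 0.24.

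**Figure D2:**
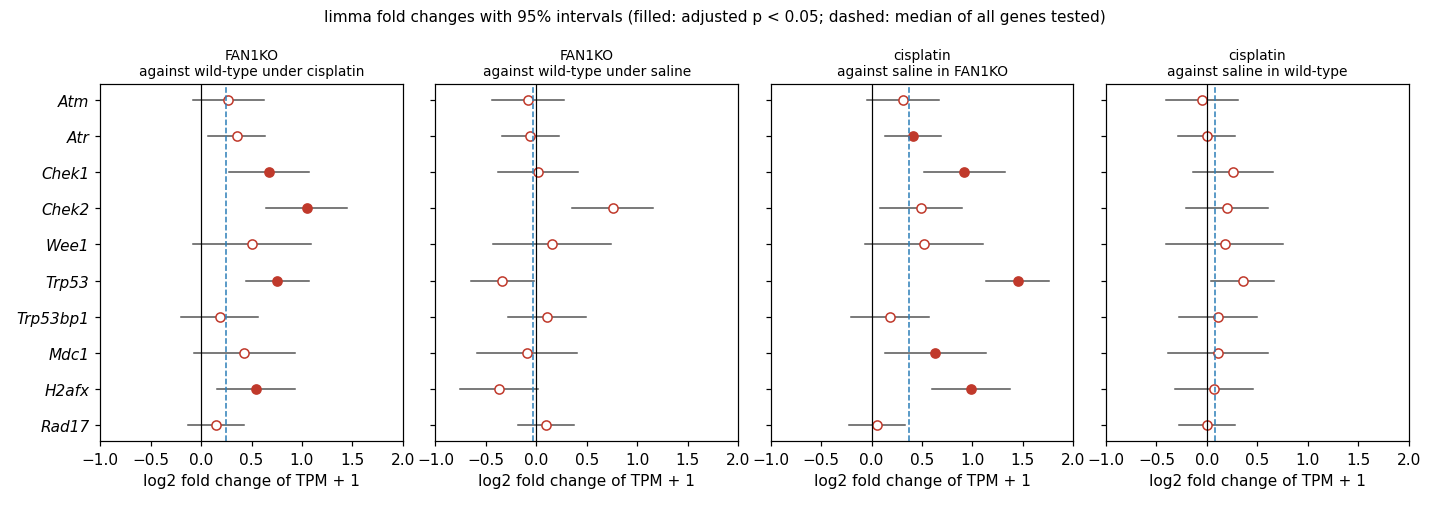
Log2 fold changes of TPM + 1 (horizontal axes) with 95% limma intervals for the 10 genes (rows) in 4 comparisons, filled where the adjusted p is under 0.05 (Chek1 in the fit with the filter it passed through FAN1KO cisplatin alone), with 0 as a solid line and the median of all 14972 genes as a dashed line. Trp53 reaches 1.45 for cisplatin against saline in FAN1KO kidneys, and Chek2 lies at 0.76 and 1.05 in the genotype comparisons.

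H2afx encodes H2AX, whose phosphorylated form marks chromatin around breaks. It stood at 22.9, 25.3 and 26.5 TPM in wild-type saline, 17.1, 18.1 and 22.3 in FAN1KO saline, 19.5, 33.8 and 27.1 in wild-type cisplatin and 39.5, 40.4 and 36.3 in FAN1KO cisplatin. By group mean, FAN1KO kidneys were the lowest group under saline and the highest under cisplatin, as for Trp53. The saline difference between genotypes was -0.37 (SE 0.18, limma adjusted p = 0.636) and passed no threshold. Cisplatin gave 2.02-fold in FAN1KO kidneys (0.99, SE 0.18, limma adjusted p = 0.00201; 0.56 and 0.0252 under median-ratio scaling) and 1.08-fold in wild-type kidneys (0.07, adjusted p = 1), and the interaction of 0.92 (SE 0.25) missed the threshold (limma adjusted p = 0.0546), which it passed without wild-type cisplatin 2 (1.10, adjusted p = 0.0357). The genotype difference under cisplatin was 1.45-fold (0.55, SE 0.18, adjusted p = 0.0457 in limma) and fell to 0.27 (adjusted p = 0.285) under median-ratio scaling. That call stood close to the threshold: limma kept it without FAN1KO saline 1 or 3 or wild-type cisplatin 2, and lost it without any 1 of the other 9 libraries, with adjusted p from 0.0523 without wild-type saline 3 to 0.146 without wild-type cisplatin 1 (fold change 0.34). H2afx is close in sequence to other H2A histone genes, and how reads shared with them were counted is not given in the sources used here.

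Mdc1, the protein that reads phosphorylated H2AX, stood at 5.36, 4.54 and 2.86 TPM in wild-type saline, 3.05, 4.65 and 3.90 in FAN1KO saline, 3.35, 4.99 and 5.55 in wild-type cisplatin and 6.98, 6.73 and 5.74 in FAN1KO cisplatin. FAN1KO cisplatin values were above all 9 others. The rise within FAN1KO kidneys was 1.68-fold (0.63, SE 0.23, limma adjusted p = 0.0464), just past the threshold, and the call was lost without any 1 of the 3 FAN1KO cisplatin libraries (0.58, 0.61 and 0.71 without replicates 1, 2 and 3, limma adjusted p 0.135, 0.117 and 0.0541), without FAN1KO saline 1 (0.51, 0.154) or 3 (0.64, 0.0893), and, with the fold change at 0.63, without wild-type saline 2 (0.0615), wild-type cisplatin 2 (0.0597) or wild-type cisplatin 3 (0.0523). Median-ratio scaling reduced the rise to 0.27 (limma adjusted p = 0.163), and the call was also lost with mitochondrial genes left out (0.53, 0.113), with no filter (0.0739) and with a pseudocount of 0.1 (0.75, 0.0521). Between genotypes under cisplatin the difference was 0.43 (adjusted p = 0.189, limma). Trp53bp1, the gene of 53BP1, which guides the choice of break repair, stood at 9.16, 7.96 and 6.21 TPM in wild-type saline, 7.25, 9.45 and 8.52 in FAN1KO saline, 7.22, 9.31 and 8.68 in wild-type cisplatin and 10.7, 10.4 and 7.96 in FAN1KO cisplatin. The groups overlapped in every comparison, and the genotype difference under cisplatin was 0.18 (95% interval -0.20 to 0.57, limma adjusted p = 0.473).

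Wee1 and Rad17 were the remaining members without a call. Wee1, the kinase that restrains CDK1, stood at 9.37, 8.02 and 4.94 TPM in wild-type saline, 8.25, 10.2 and 6.40 in FAN1KO saline, 5.92, 8.53 and 11.1 in wild-type cisplatin and 13.4, 13.3 and 9.98 in FAN1KO cisplatin. The groups overlapped in every comparison, and in 3 of the 4 groups the lowest library was the one with Y-linked RNA. The difference between genotypes under cisplatin was 0.50 (95% interval -0.08 to 1.09, limma adjusted p = 0.19) and within FAN1KO kidneys 0.52 (-0.07 to 1.10, adjusted p = 0.14). Leaving out the 4 libraries with Y-linked RNA, an alternative added after the data were seen, gave 0.66 within FAN1KO kidneys (adjusted p = 0.0355, limma). Rad17 ranged from 8.86 to 11.7 TPM over the 12 libraries. Its values were 10.6, 9.69 and 8.86 in wild-type saline, 9.33, 11.6 and 10.5 in FAN1KO saline, 9.84, 9.50 and 9.73 in wild-type cisplatin and 11.7, 11.5 and 9.56 in FAN1KO cisplatin. Cisplatin in FAN1KO kidneys gave 0.06 (95% interval -0.22 to 0.33) as deposited, below the all-gene median, and -0.34 after median-ratio scaling, which limma then called lower (adjusted p = 0.0357).

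**Figure D3:**
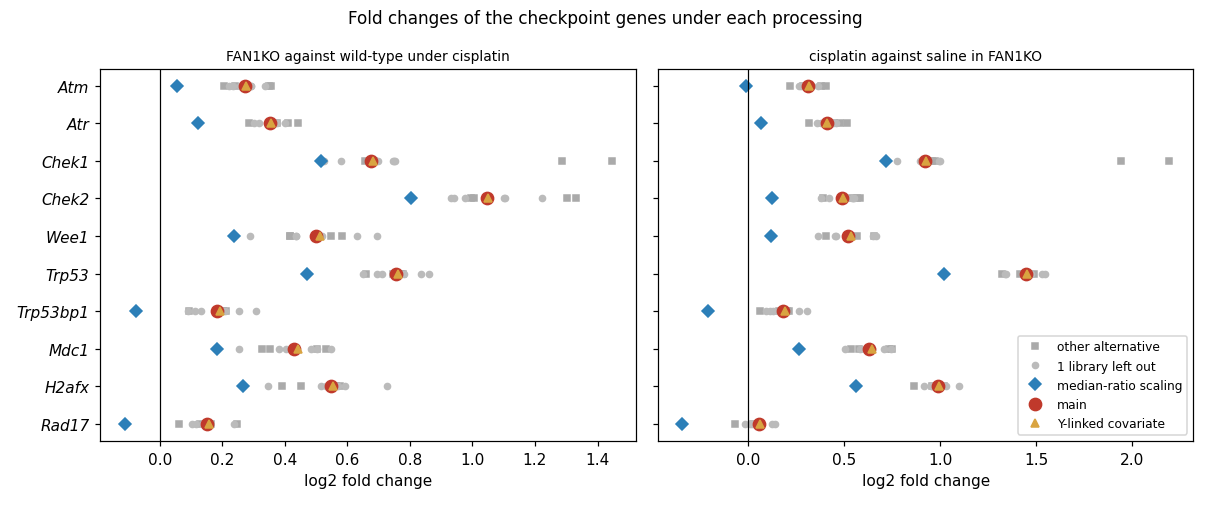
Log2 fold change of each checkpoint gene (rows) for FAN1KO against wild-type under cisplatin and for cisplatin against saline in FAN1KO kidneys, under the reported processing and each alternative. Median-ratio scaling, drawn as diamonds, shifts the genes toward lower values, with Trp53 at 0.47 and 1.02 and Rad17 at -0.11 and -0.34. Chek1 extends to 1.45 and 2.19 by voom on recovered reads.

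Across the 12 libraries Trp53 ran with Chek1 (Pearson r = 0.91) and H2afx (0.91), and Chek1 with Atr (0.91). Chek2 was less like Trp53 (0.50) and H2afx (0.44), and Rad17 was least like H2afx (0.20). Mdc1 ran with Wee1 (0.90), Atm (0.89) and Trp53bp1 (0.87), where 1840 genes over all those tested reached 0.9 with Mdc1. These are descriptions over libraries of 4 groups that share library scaling. The genes most like Trp53 were 2610524H06Rik, Tgif1 and Nufip1 (each 0.98), with 1220 genes at 0.9 or above, and those most like Chek1 were Tmem127, Ptp4a2 and Psd4 (each 0.99), with 2135 such genes. For H2afx they were Ift22 (0.98), Mzt2 and 3110082I17Rik (0.97), for Atr Dusp5 (0.97) and Serpinb9b (0.96), and for Atm Washc2, Gramd1c and Ppp3r1 (0.95, 0.95 and 0.94). Mdc1 was most like Mr1 (0.99), Iqgap1 and Rprd2 (0.98), Trp53bp1 like Fermt2 (0.98), Nup93 and Rassf6 (0.97), and Wee1 like Klf13, an unnamed gene numbered 100503578 (0.94 each) and Ift27 (0.93). Rad17 was most like Tmem185a, Dusp26 and Epb41l5 (0.93, 0.92 and 0.92), and 6 genes reached 0.9 with it.

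The other genes of the 2 arms moved less than the transcriptional targets. Of 15 tested genes of the ATR arm (ATRIP, TOPBP1, ETAA1, the clamp, the fork protection pair, RPA and the clamp loader), limma called 4 higher and none lower in FAN1KO than in wild-type kidneys under cisplatin, with a median log2 difference of 0.40 beside 0.24 over all genes, of which 19.6% were called higher. They were 3 subunits of the clamp loader, Rfc3 (0.90, adjusted p = 0.0451), Rfc4 (0.68, 0.0252) and Rfc5 (0.56, 0.0147), and Topbp1, the activator of ATR (0.57, 0.0129). Hus1, a subunit of the clamp that RAD17 loads, stood at 8.41, 7.61 and 8.16 TPM in FAN1KO cisplatin and at 10.4 to 14.5 in the saline libraries. In wild-type cisplatin it stood at 19.4, 10.6 and 10.1, the first in the library with Y-linked RNA. Its genotype difference under cisplatin was -0.61 and was not called (adjusted p = 0.0737 in limma). Of 14 tested genes of the ATM arm, limma called 2 higher, Rad50, a subunit of the break sensor (0.74, adjusted p = 0.0187), and Babam2, of the BRCA1-A complex (0.53, 0.00152), and the median was 0.24. Both counts lay near the share of all genes called. Within FAN1KO kidneys cisplatin raised 10 of the 15 and 9 of the 14, with medians of 0.62 and 0.45 beside 0.37 over all genes, and lowered none, where 34.9% of all genes were called higher. Under median-ratio scaling the counts between genotypes fell to 2 of 15 for the ATR arm and, for the ATM arm, to 1 higher and 1 lower of 14. Within FAN1KO kidneys they fell to 5 of 15 for the ATR arm (median 0.24). For the ATM arm they fell to 2 higher and 1 lower of 14 (median 0.03).

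Among 9 tested targets and inhibitors of the checkpoint, limma called 4 higher between genotypes under cisplatin, of which Cdk1 and Ccnb1 are the kinase and the cyclin that drive mitosis. Cdk1 gave 1.48 (SE 0.24, limma adjusted p = 0.00254) and Mdm2, which directs p53 to degradation, 0.74 (0.21, 0.0305). The other 2 called were Pkmyt1, a second inhibitor of CDK1 (1.20), and Ccnb1 (0.94). Both passed the filter through FAN1KO cisplatin alone, the group in which they were high, so their p-values are not given. Of the remaining 7 genes limma called 2, near the 19.6% of all genes. Mdm2 stood at 19.0 to 30.9 TPM in the 6 saline libraries, 40.3, 49.1 and 58.7 in wild-type cisplatin and 97.0, 92.5 and 62.0 in FAN1KO cisplatin. In wild-type kidneys that rise was 1.91-fold without overlap (0.92, unadjusted p = 0.00129, limma adjusted p = 0.426).

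**Figure D4:**
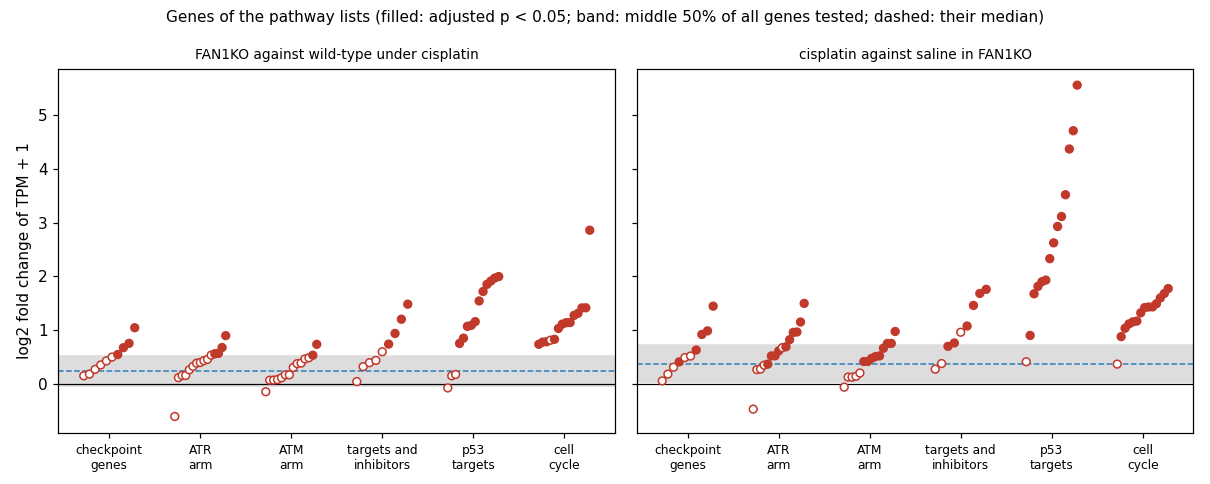
Log2 fold change of TPM + 1 (vertical axis) of every tested gene of the checkpoint set and 5 lists, filled where the limma adjusted p is under 0.05, with the middle 50% of all genes as a band and their median as a dashed line. Genes that passed the filter through FAN1KO cisplatin alone are drawn too. The p53 targets reach 2.00 between genotypes under cisplatin (left) and 5.56 for cisplatin against saline in FAN1KO kidneys (right), above the checkpoint genes, whose highest values are 1.05 and 1.45.

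After cisplatin, p53 targets were called higher in both genotypes, in wild-type kidneys only in some of the settings tried. In wild-type kidneys limma called 7 of 14 higher after cisplatin, the only called genes of the 5 pathway lists in that comparison: Cdkn1a, the gene of the CDK inhibitor p21 (3.43, SE 0.39, adjusted p = 0.0222), Phlda3 (2.88), Gdf15 (2.11, adjusted p = 0.0173), Plk2 (2.05), Ccng1 (1.54), Aen (1.41) and Sesn2 (1.24), the last 4 and Phlda3 at an adjusted p of 0.0222. None of the 14, and none of all genes, was called by limma without any 1 of the 3 wild-type saline libraries, without wild-type cisplatin 2 or 3, with the replicate block (adjusted p of the 7, 0.0766) or with the 6 libraries of the comparison (0.315 to 0.407). Without wild-type cisplatin 1 it called 11, without FAN1KO cisplatin 2 it called 2, and without the 4 libraries with Y-linked RNA 13. The log2 differences of the 7 were 1.08 or more in all of these fits, and all 7 were without overlap between the wild-type groups. In FAN1KO kidneys 13 of 14 rose, with a median of 2.48 on the log2 scale. Over all genes, 0.0601% were called higher after cisplatin in wild-type kidneys, 34.9% in FAN1KO kidneys and 19.6% between genotypes under cisplatin. Between genotypes under cisplatin 11 of 14 were higher, led by Bbc3, which promotes apoptosis (2.00, SE 0.22, limma adjusted p = 0.00047), Gdf15, a stress cytokine (1.97, SE 0.21, adjusted p = 0.000427), and Cdkn1a (1.92, SE 0.39, adjusted p = 0.007). Cdkn1a stood at 5.68 to 9.98 TPM in the saline libraries, 56.8, 99.2 and 169 in wild-type cisplatin and 442, 529 and 224 in FAN1KO cisplatin. Within the FAN1KO cisplatin group the lowest library for Cdkn1a, Mdm2 and Trp53 was the same, replicate 3, which held Y-linked RNA. Under median-ratio scaling 10 of 14 stayed called between genotypes.

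Cell cycle genes were the other list with most members called. Of 14 tested, limma called 13 higher between genotypes under cisplatin and 13 within FAN1KO kidneys after cisplatin, where 19.6% and 34.9% of all genes were called higher. Of the 14, 4 passed the filter through FAN1KO cisplatin alone. Of the other 10, limma called 9 in each comparison. Mcm6 gave 2.86 (SE 0.25, adjusted p = 0.000136), Rrm2, a subunit of ribonucleotide reductase, 1.42 (0.26, 0.00467) and Top2a, which untangles sister chromatids, 1.42 (0.26, 0.00428). Summed over the list of 15 genes, TPM were 178, 145 and 146 in FAN1KO cisplatin, 49.4, 76.8 and 74.6 in wild-type cisplatin, 58.6, 67.3 and 71.9 in FAN1KO saline and 44.9, 59.1 and 51.8 in wild-type saline. FAN1KO cisplatin 1, with the highest median ratio (1.35), was the highest library for this sum and for 9 of the 10 checkpoint genes, all but H2afx.

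**Figure D5:**
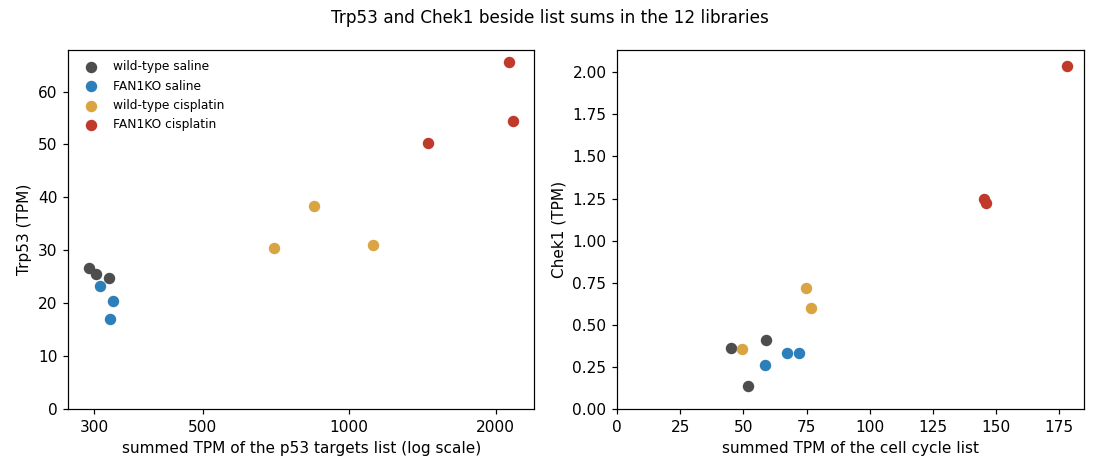
Trp53 TPM beside the summed TPM of 14 p53 targets (left, horizontal log axis), and Chek1 TPM beside that of 15 cell cycle genes (right), in the 12 libraries colored by group. The p53 target sums separate the cisplatin libraries from the saline libraries in both genotypes, whereas Chek1 and the cell cycle sums set apart the 3 FAN1KO cisplatin libraries, with Chek1 at or above 1.22 TPM and sums of 145 or more.

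Summed markers of the proximal tubule and of red blood cells set the FAN1KO cisplatin group apart, whereas immune marker sums overlapped between the genotypes under cisplatin. The defining markers of the proximal tubule were present in all libraries, and 6 of the 10 were lower in FAN1KO than in wild-type kidneys under cisplatin (limma), with summed TPM of 1962, 2321 and 4069 against 7416, 5024 and 5386. In that comparison 19.6% of all genes were called higher and 4.37% lower. The list of 10 immune cell markers summed to 253, 136 and 121 TPM in FAN1KO cisplatin, 56.9, 168 and 141 in wild-type cisplatin, 36.6, 83.9 and 48.1 in FAN1KO saline and 81.3, 89.8 and 54.6 in wild-type saline, with 1 of 9 tested markers called between genotypes under cisplatin (Cd68, 1.56, limma adjusted p = 0.0499). Of the markers of endothelium, fibroblasts, podocytes and the thick ascending limb none was called in that comparison. In the list for the distal tubule and collecting duct Aqp2 was called higher and Pvalb lower. Hemoglobin genes and Alas2 summed to 6.56, 13.2 and 73.4 TPM in FAN1KO cisplatin and to 535 or more in each of the other 9 libraries. No listed marker outside the Y-linked genes was at 0 in any library. In whole kidney, fewer cells of a type and less RNA per cell cannot be told apart, and the part of these shifts in the values of the checkpoint genes was not tested.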

How the data were processed

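The values deposited by the authors were TPM, in a single table of 27179 NCBI Gene numbers by 12 libraries (columns left out, 0). The labels name mm10 and limma, and the aligner and counter are not given in the sources used here. Names came from RefSeq GRCm38.p6 (1904 numbers had none). Reads were recovered from the TPM steps: all 232991 values above 0 were whole within 0.02, as for 0 of 500 decoy genes.

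Genes needed at least 1 TPM in 3 libraries (14972). limma 3.58.1 in R 4.3.3 fitted log2(TPM + 1) with 4 group means over all 12 libraries and a variance trend, with Benjamini-Hochberg adjustment over these genes, beside two-sided exact permutation tests. Replicates are separate mice. The deviations of libraries with the same replicate number correlated at -0.24 to -0.14 on average, with single pairs from -0.61 to 0.60. These values cannot decide whether the numbers pair samples, because the libraries with Y-linked RNA carry different numbers in every comparison. The reported fit holds no pairing. Python 3.11.15 drew figures. The fit and the recovery of reads were tested on simulated data.

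Members and lists were chosen with earlier results of these data known. Named genes were all members, the called genes with the largest fold changes between genotypes under cisplatin from each pathway list, listed genes called in wild-type kidneys, and the 3 genes most correlated with each member, of which 1 is not reported here. Alternatives were a pseudocount of 0.1, 2 filters, median-ratio scaling, 6 libraries per comparison, a replicate block, a Y-linked covariate, no variance trend, mitochondrial genes left out, voom, and each library left out. Protein sequences were not used here.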

Additional observations from a re-analysis of the deposited data

Results flagged for a closer look

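The response of Trp53 to cisplatin differed between the genotypes by the interaction term itself. The log2 change of TPM + 1 was 1.45 in FAN1KO and 0.35 in wild-type kidneys, a difference of 1.093 (SE 0.20, limma adjusted p = 0.0162), and all 3 cisplatin values exceeded all 3 saline values in each genotype. The median interaction over all genes was 0.28, and Trp53 lay 0.81 above that median. Across the 22 settings in which the interaction was fitted it ran from 0.76 to 1.20 and was called in all of them (highest adjusted p 0.0445). The summed proximal tubule and hemoglobin markers given above were lower in FAN1KO cisplatin than in every other library. The immune marker sums overlapped between the genotypes under cisplatin. The part of these markers in the Trp53 difference was not tested.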

How the results depend on the processing

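Trp53 and Chek2 between genotypes under cisplatin, and Trp53 and H2afx for cisplatin within FAN1KO kidneys, kept direction and call in all settings run. Chek1, which passed the filter through 1 group, is left out of the counts of called members, which follow. With the Y-linked covariate they were 6 (reported 3) between genotypes under cisplatin, 1 (0) under saline, 7 (4) for cisplatin within FAN1KO kidneys and 3 (1) for the interaction, where calls over all genes were higher for 7919 (5229) within FAN1KO kidneys and 4088 (782) for the interaction. Median-ratio scaling gave 1 under saline, and 2 remained within FAN1KO kidneys with no filter on low values or with mitochondrially encoded genes left out. Leaving out 1 library at a time gave 2 to 5 within FAN1KO kidneys (2 without FAN1KO saline 3 or FAN1KO cisplatin 1) and 1 to 2 for the interaction (2 without wild-type cisplatin 2). Between genotypes under cisplatin 2931 genes of all those tested were called higher and 654 lower as reported, 1389 and 1155 under median-ratio scaling, 1863 and 741 with mitochondrial genes left out (71.5% of calls higher), 1721 and 454 with the 6 libraries of the comparison, 6035 and 1288 with the Y-linked covariate and 4328 and 1162 without the 4 libraries with Y-linked RNA, an alternative chosen after seeing the data. The cause was not tested. Whether the replicate numbers pair the samples was not settled. A replicate block gave 3 for the genotypes under cisplatin, 3 within FAN1KO kidneys (Mdc1 lost, limma adjusted p = 0.0661) and 1 for the interaction. It called 2376 genes higher and 580 lower over all genes between genotypes under cisplatin, and 351 and 73 in the interaction (782 and 153 as reported).

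No difference that changed sign had been called as reported, and of the reversed values only Rad17 within FAN1KO kidneys under median-ratio scaling was called. Median-ratio scaling gave, between genotypes under cisplatin, Rad17 -0.11 and Trp53bp1 -0.077, within FAN1KO kidneys Rad17 -0.34, Trp53bp1 -0.21 and Atm -0.013, in wild-type kidneys after cisplatin Rad17 -0.086 and H2afx -0.024, and for the interaction Rad17 -0.26, Trp53bp1 -0.23 and Chek2 -0.012. With mitochondrial genes left out, Rad17 was -0.069 within FAN1KO kidneys, -0.028 in wild-type kidneys and -0.041 for the interaction, and Trp53bp1 -0.019 for the interaction. Voom gave H2afx -0.0080 and Rad17 -0.012 in wild-type kidneys. Leaving out the 4 libraries with Y-linked RNA gave Rad17 -0.066 in wild-type kidneys and, between genotypes under saline, Chek1 -0.057 and Wee1 -0.085.

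Leaving out 1 library at a time, ranges that crossed 0 for cisplatin in wild-type kidneys were -0.20 to 0.047 (Atm), -0.046 to 0.034 (Atr), -0.11 to 0.27 (H2afx), -0.097 to 0.29 (Mdc1), -0.056 to 0.058 (Rad17), -0.028 to 0.22 (Trp53bp1) and -0.060 to 0.39 (Wee1). Between genotypes under saline they were -0.23 to 0.0079 (Atm), -0.083 to 0.074 (Chek1), -0.30 to 0.060 (Mdc1), -0.027 to 0.22 (Trp53bp1) and -0.078 to 0.32 (Wee1). For Rad17 within FAN1KO kidneys the range was -0.016 to 0.14, and for the interaction it was -0.017 to 0.14 (Rad17) and -0.037 to 0.21 (Trp53bp1). The 3 mice per group and the depth of Chek1 (23 to 145 reads) limit what differences could be shown.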
